A study of Mus musculus with 18 samples.

Results

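The 10 genes described here are subunits, regulators and outputs of the transcription factor NF-kB. They are the subunit genes Nfkb1, Nfkb2, Rela and Relb, the cofactor gene Bcl3, the feedback inhibitors Nfkbia and Tnfaip3, the cytokine genes Tnf and Il1b, and the interleukin-1 receptor antagonist gene Il1rn. Their rows were taken by gene symbol in all 18 libraries, with no threshold on any value. All 10 were among the 55416 genes of the count table, and all 10 were among the 17040 with enough counts to be tested.

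Monocytes were sorted from the spleens of mice, labelled day 3, and their RNA was sequenced in 6 groups of 3 mice, independent per the text of the series. The animals were C57BL/6 wild type (WT), Dectin-1 knockout (Dectin-1 -/-) or FcgRIIb knockout (FcgRIIb-/-), and mice of each genotype were given IVIg, the pooled donor antibodies used in autoimmune disease, or the buffer PBS. Dectin-1, encoded by Clec7a, is a receptor for fungal beta-glucan that signals through Card9 to NF-kB, and FcgRIIb (gene Fcgr2b) is the Fc receptor that dampens activation. The title of the series names the effect of both receptors on reprogramming of monocytes by IVIg. The age of the mice, how the alleles were made and whether a deletion was limited to a cell type are not given in the sources used here, and the labels name no stimulus other than IVIg.

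In a resting cell NF-kB dimers are held in the cytoplasm by inhibitor proteins such as IkB-alpha, the product of Nfkbia. Signals from Toll-like, TNF and interleukin-1 receptors activate the IKK complex, which marks the inhibitor for destruction and lets the dimer enter the nucleus, while a slower route processes the Nfkb2 product to pair with Relb. Many targets of NF-kB code for its own brakes, Nfkbia and Tnfaip3 among them, and in monocytes others code for TNF, interleukin-1 beta and its natural antagonist. Activation occurs on the protein, so transcript levels show the amounts of the parts and of the targets and not where the factor was.

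The start sites of the feedback genes carry letters that NF-kB dimers are known to bind, which is why they are shown. The kappa-B decamer was searched on both strands, overlapping matches included, in RefSeq promoter windows (GRCm38.p6) from 250 bases before to 50 bases after each start. Windows were matched by symbol for 8 of the 10 genes, all but Nfkb1 and Relb. Of these 8 genes 4, or 50%, held a match, against 1388 of all 27025 genes with a window, or 5.14%. A gene counted if any of its windows held a match. Of the 13 windows of these genes 6, or 46.2%, held one, against 4.51% of all 32851 windows. In the stretches below, written 5′ to 3′ along the gene, capitals mark the matches.
Nfkb2, chr19:46304673-46304756 (plus strand): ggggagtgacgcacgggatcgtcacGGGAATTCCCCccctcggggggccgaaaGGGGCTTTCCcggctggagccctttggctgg
Bcl3, chr7:19822736-19822778 (minus strand): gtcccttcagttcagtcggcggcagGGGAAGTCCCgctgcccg
Nfkbia, chr12:55492642-55492701 (minus strand): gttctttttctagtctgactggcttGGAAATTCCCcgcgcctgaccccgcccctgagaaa
Tnfaip3, chr10:19015391-19015560 (minus strand): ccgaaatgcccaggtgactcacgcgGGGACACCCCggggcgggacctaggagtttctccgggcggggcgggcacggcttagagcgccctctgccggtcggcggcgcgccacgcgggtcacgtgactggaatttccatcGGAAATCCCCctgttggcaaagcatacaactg
The Nfkb2 stretch is from the first of its 3 windows and holds 3 matches. Of these a pair overlap and start 39 and 38 bases before the start site, and the other starts 11 bases before it. The other 2 windows of Nfkb2, which overlap, held 2 and 1 matches and are not shown. Nfkbia has its match starting 29 bases before the start, Tnfaip3 has one 125 bases and one 12 bases before it, and that of Bcl3 begins at base 3 of the transcript. Of all 32851 windows 17, or 0.0517%, held 3 or more matches. The windows of Rela, Tnf, Il1b and Il1rn held no match to these letters. A match is a description of the letters only, and binding was not measured here.

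The labels and the libraries were checked as follows. Total counts were 16996494 to 48958909 in 17 libraries and 719494 in FcgRIIb knockout PBS replicate 2, where 3 counts correspond to 4.24 CPM (counts scaled to library size), and in the other libraries to 0.0615 to 0.186 CPM. Clec7a lay at 0.247 to 4.05 CPM in the 6 Dectin-1 knockout libraries and at 360 to 956 CPM in the other 12. Fcgr2b lay at 130 to 250 CPM in the 6 FcgRIIb knockout libraries and at 208 to 318 CPM in the other 12, so those ranges overlapped and the transcript did not separate that genotype. FcgRIIb knockout below is the word of the labels. All 13 monocyte defining markers had a median above 1 CPM, with Lyz2 the most abundant. WT PBS replicate 3 and WT IVIg replicate 1 had the most similar expression of 153 pairs (Spearman 0.9885) though their treatments differ. Several differences of single genes that rest on either are also given without that library. Medians over the members and over the lists use all 18 libraries. The replicate numbers were given in accession order and pair nothing. That the 3 mice of a group were independent rests on the text of the series. The titles of the samples carry codes, of which 3 stand on 2 libraries each, among them Dectin-1 knockout PBS replicates 2 and 3 and FcgRIIb knockout PBS replicates 1 and 2. The labels do not say what the codes mark, and p-values measure the spread between these libraries, which may in part be technical.

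Compared per kilobase of annotated exon, which sets genes of different length side by side, Nfkbia was the most abundant of the 10 in 17 of the 17 libraries of ordinary depth. Its median level was 107 CPM per kilobase. The length used counts all annotated exon bases of a gene and not those of 1 transcript, so the order depends on the annotation. It was 12061 bases for Nfkb1, 5535 for Il1rn and 1610 for Nfkbia. Without division by length the medians were 499 CPM for Nfkb1 and 172 CPM for Nfkbia. Among the subunits the medians were 41.3 CPM per kilobase for Nfkb1, 35.8 for Nfkb2, 31.5 for Rela and 16.5 for Relb. Bcl3 stood at 16.3 CPM per kilobase and Tnfaip3 at 8.36. Of the cytokine genes Il1b had a median of 23.3 CPM per kilobase and Tnf of 2.23, the lowest of the 10 in 16 of 17 libraries. Il1rn had a median of 4.07 CPM per kilobase and lay below Il1b in 17 of 17 libraries.

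The genes also differed in how much they varied between mice. The coefficient of variation of CPM over the 17 libraries was 10.4% for Rela, 13.7% for Nfkb1, 15.6% for Relb and 21.7% for Nfkb2. It was 21.5% for Nfkbia, 26.5% for Tnfaip3, 26.8% for Il1rn and 37.4% for Il1b. Tnf, which rests on few counts, varied by 54.7% and Bcl3 by 63.7%. The values of Bcl3 and Il1b rested on WT PBS replicate 3, and over the other 16 libraries they were 25.5% and 23.7%, below the 27.3% of Tnfaip3 and the 27.7% of Il1rn. Among 2127 genes of similar level Bcl3 was at percentile 98.1 of variation, and without that library it was at percentile 73.8 of 2181. Rela was at percentile 10.5 of 1487 such genes, and at 8.85 without it. Rela had the lowest and Tnf, over those 16 libraries, the highest variation of the set.

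**Figure D1:**
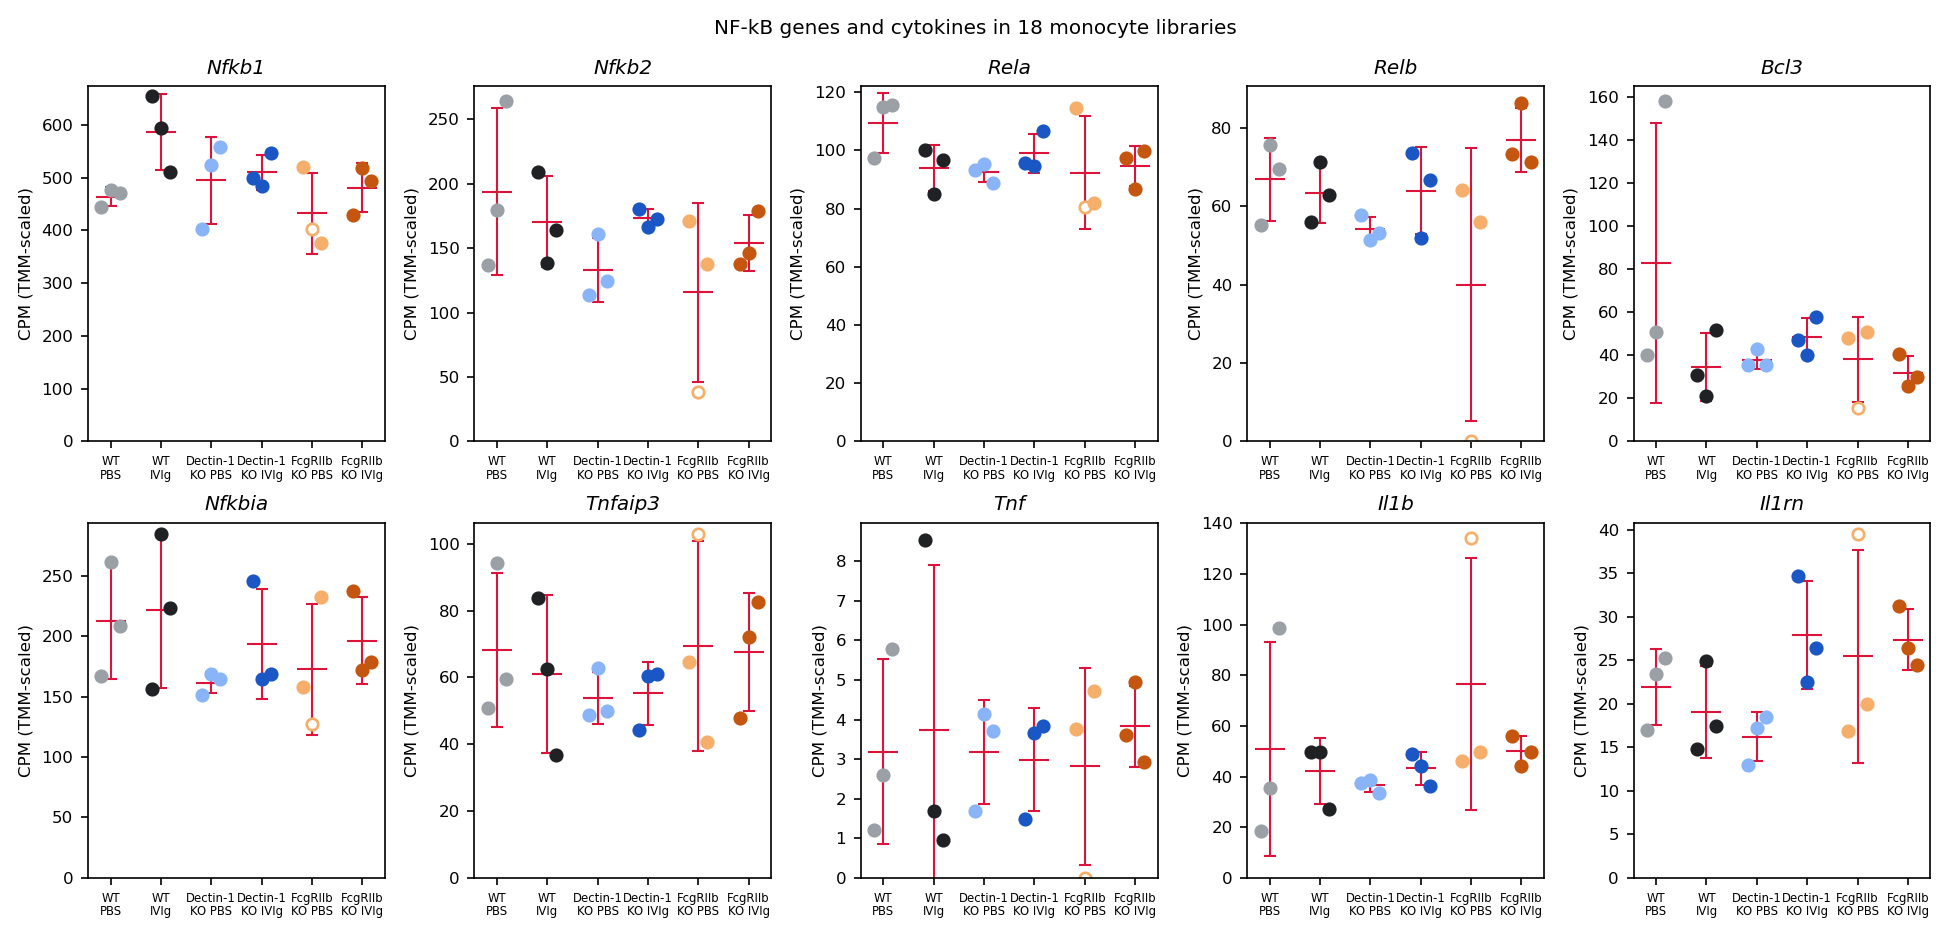
CPM of each gene (vertical axis, linear from 0) in the 18 libraries by group, with 1 point per mouse, the open point for the shallow FcgRIIb knockout PBS replicate 2, and red bars for the mean and SD of 3 libraries. WT PBS replicate 3 stands apart for Bcl3 at 158 CPM, and for most genes the 6 groups share 1 range.

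Nfkb1 (ENSMUSG00000028163, chromosome 3, 135290416 to 135397308, GRCm39) encodes the precursor of the DNA-binding partner of Rela. In WT it stood at 444, 476 and 472 CPM with PBS and at 654, 594 and 511 CPM with IVIg. Dectin-1 knockout mice had 402, 523 and 559 CPM with PBS and 499, 484 and 547 CPM with IVIg. FcgRIIb knockout mice had 519.5, 402 and 375 CPM with PBS and 429, 519 and 494 CPM with IVIg. The 3 WT IVIg libraries all lay above the 3 WT PBS libraries, while with and without IVIg the knockout groups overlapped. Group means ran from 587 ± 71.9 CPM (SD, n = 3) in WT IVIg to 432 ± 76.7 CPM in FcgRIIb knockout PBS, and WT IVIg exceeded the next group, Dectin-1 knockout IVIg, by 76.5 CPM, which is more than the SD of either group though single mice overlapped.

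Nfkb2 (ENSMUSG00000025225, chromosome 19, 46292759 to 46300824) encodes the precursor that the slower route processes. The WT libraries held 137, 179.8 and 265 CPM with PBS and 209, 139 and 164 CPM with IVIg. The Dectin-1 knockout libraries held 114, 161 and 125 CPM with PBS and 180.3, 166 and 173 CPM with IVIg. The FcgRIIb knockout libraries held 171, 38.1 and 138 CPM with PBS and 138, 146 and 179 CPM with IVIg. In the Dectin-1 knockout the IVIg libraries all lay above the PBS libraries, in the other genotypes they overlapped, and the highest level of all 18 was that of WT PBS replicate 3. No pair of groups next to each other in the order of means differed beyond the larger SD. Of its exon bases 830, or 18.1%, are shared with Psd and 4833438C02Rik on the other strand, whose reads the counting did not separate.

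Rela (ENSMUSG00000024927, chromosome 19, 5687511 to 5698158) encodes the activating partner of the common dimer and was the steadiest member. WT libraries stood at 97.3, 115 and 116 CPM with PBS and 100.1, 84.9 and 96.8 CPM with IVIg. Dectin-1 knockout libraries stood at 93.1, 95.4 and 88.8 CPM with PBS and 95.6, 94.6 and 107 CPM with IVIg. FcgRIIb knockout libraries stood at 115, 80.5 and 81.8 CPM with PBS and 97.4, 86.6 and 99.8 CPM with IVIg. The Dectin-1 knockout PBS libraries all lay below the WT PBS libraries, the nearest mice being at 95.4 and 97.3 CPM. Group means spanned only 92.3 ± 19.4 CPM (SD, n = 3) in FcgRIIb knockout PBS to 109 ± 10.4 CPM in WT PBS.

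Relb (ENSMUSG00000002983, chromosome 7, 19340142 to 19363363) encodes the partner of the processed Nfkb2 product. In WT the values were 55.2, 75.8 and 69.6 CPM with PBS and 56.1, 71.3 and 62.9 CPM with IVIg. In the Dectin-1 knockout they were 57.8, 51.5 and 53.2 CPM with PBS and 73.6, 51.8 and 66.7 CPM with IVIg. In the FcgRIIb knockout they were 64.2, 0 and 55.98 CPM with PBS and 73.3, 86.4 and 71.3 CPM with IVIg. The value of 0 is that of the shallow library, where 0 counts allow up to 4.24 CPM for counting error alone. The other 17 libraries lay between 51.5 and 86.4 CPM, and the FcgRIIb knockout IVIg libraries all lay above those with PBS. In the order of means only the step from WT IVIg to Dectin-1 knockout PBS, of 9.32 CPM, exceeded the larger SD, and it did so with overlapping mice.

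Bcl3 (ENSMUSG00000053175, chromosome 7, 19542387 to 19556695) encodes a nuclear protein of the IkB family that binds DNA-bound dimers and changes their output. WT libraries held 40.1, 50.7 and 158 CPM with PBS and 30.8, 21.1 and 51.9 CPM with IVIg. Dectin-1 knockout libraries held 35.4, 42.95 and 35.5 CPM with PBS and 47.1, 40.1 and 57.8 CPM with IVIg. FcgRIIb knockout libraries held 47.97, 15.5 and 51.00 CPM with PBS and 40.4, 25.7 and 29.7 CPM with IVIg. WT PBS replicate 3 was far above the other 17 libraries, whose highest was 57.8 CPM, and the other WT PBS mice lay inside the range of the remaining groups. The groups overlapped in each comparison, in the FcgRIIb knockout with IVIg against PBS through the shallow library alone, which rests on 11 counts. The mean of WT PBS, 82.9 ± 65.2 CPM (SD, n = 3), carries that library in its SD. Of its exon bases 161, or 6.51%, are shared with Gm16175 on the other strand.

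Nfkbia (ENSMUSG00000021025, chromosome 12, 55536195 to 55539432) encodes IkB-alpha, the inhibitor that is destroyed on activation and made anew from its own target site. In WT it stood at 167, 261 and 209 CPM with PBS and 156, 285 and 223 CPM with IVIg. In the Dectin-1 knockout it stood at 152, 169 and 164 CPM with PBS and 246, 165 and 169 CPM with IVIg. In the FcgRIIb knockout it stood at 158, 127 and 233 CPM with PBS and 238, 172 and 179 CPM with IVIg. Every comparison overlapped, and the means from 162 ± 8.98 CPM (SD, n = 3) in Dectin-1 knockout PBS to 221 ± 64.2 CPM in WT IVIg formed an order in which no neighbours differed beyond their SD.

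Tnfaip3 (ENSMUSG00000019850, chromosome 10, 18876658 to 18891405) encodes A20, a ubiquitin-editing enzyme that shuts off signalling above the IKK complex. WT libraries held 50.9, 94.3 and 59.4 CPM with PBS and 83.8, 62.4 and 36.8 CPM with IVIg. Dectin-1 knockout libraries held 48.8, 62.7 and 49.8 CPM with PBS and 44.2, 60.4 and 61.03 CPM with IVIg. FcgRIIb knockout libraries held 64.6, 103 and 40.7 CPM with PBS and 47.97, 72.2 and 82.6 CPM with IVIg. The groups overlapped in each comparison and no neighbouring means differed beyond their SD. Single WT IVIg mice lay from 36.8 to 83.8 CPM, a range that held most of the other libraries.

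Tnf (ENSMUSG00000024401, chromosome 17, 35418357 to 35420983), the cytokine that opens many inflammatory responses, was low in all libraries. WT libraries held 1.20, 2.60 and 5.78 CPM with PBS and 8.53, 1.70 and 0.954 CPM with IVIg. Dectin-1 knockout libraries held 1.70, 4.14 and 3.72 CPM with PBS and 1.48, 3.65 and 3.84 CPM with IVIg. FcgRIIb knockout libraries held 3.75, 0 and 4.71 CPM with PBS and 3.60, 4.95 and 2.93 CPM with IVIg. The lowest and the highest of the 17 libraries of ordinary depth were both WT IVIg mice, and all groups overlapped. In the shallow library the level was not detectable at its depth.

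Il1b (ENSMUSG00000027398, chromosome 2, 129206490 to 129213059), the pro-inflammatory cytokine that caspase-1 releases, was more abundant per length than its antagonist gene in all 17 libraries of ordinary depth. In WT the values were 18.6, 35.7 and 98.8 CPM with PBS and 49.9, 49.9 and 27.03 CPM with IVIg. Mice without Dectin-1 had 37.6, 38.7 and 33.6 CPM with PBS and 49.1, 44.3 and 36.2 CPM with IVIg. The FcgRIIb knockout libraries had 46.03, 134 and 49.7 CPM with PBS and 56.05, 44.3 and 49.9 CPM with IVIg. WT PBS held both the lowest and the highest of the 17 libraries of ordinary depth, and the shallow library, with 95 counts of the gene, stood higher still. The groups overlapped in each comparison, and only the step from FcgRIIb knockout IVIg to Dectin-1 knockout IVIg, of 6.83 CPM, exceeded the larger SD. Of its exon bases 25, or 1.31%, are shared with Il1bos on the other strand.

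Il1rn (ENSMUSG00000026981, chromosome 2, 24226865 to 24241506) encodes the secreted antagonist that occupies the interleukin-1 receptor without signalling. In WT it stood at 16.96, 23.4 and 25.3 CPM with PBS and 14.8, 24.99 and 17.5 CPM with IVIg. Without Dectin-1 it stood at 13.03, 17.2 and 18.5 CPM with PBS and 34.7, 22.5 and 26.5 CPM with IVIg. In libraries labelled FcgRIIb knockout it stood at 16.9, 39.5 and 20.04 CPM with PBS and 31.3, 26.5 and 24.4 CPM with IVIg. The Dectin-1 knockout IVIg libraries all lay above the PBS libraries of that genotype, and so did the FcgRIIb knockout IVIg libraries except against the shallow one, which rests on 28 counts. The log2 ratio of Il1b to Il1rn per kilobase was 3.07, 2.71 and 2.39 in Dectin-1 knockout PBS and 2.04, 2.51 and 1.99 in Dectin-1 knockout IVIg, and it spread from 1.67 to 3.50 within WT PBS alone.

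The comparison of IVIg with PBS asks whether the treatment changed these genes in each genotype. Calls needed an adjusted p (Benjamini-Hochberg, over all genes tested) under 0.05 in edgeR's quasi-likelihood test, and DESeq2 and limma voom were run beside it. By this rule no member was called in any of 10 comparisons by any of the 3 tools, and the share of all genes called stands beside each count. Shares of all genes at an unadjusted p under 0.05 are those of edgeR's fit to all 18 libraries. Counts of members at that threshold in other fits have no such share beside them and are not read as a result. Differences below are log2 fold changes of IVIg over PBS or of knockout over WT. In sorted bulk samples fewer cells of a type and less RNA per cell cannot be told apart.

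In WT mice 9 of the 10 genes had fitted log2 differences with IVIg of -0.27 to 0.34. The exception was Bcl3, at -1.26 ± 0.41 (SE) with a 95% interval of -2.11 to -0.41 (edgeR, adjusted p = 1). That value rests on WT PBS replicate 3. Without it the difference of Bcl3 was -0.39, and without that library and WT IVIg replicate 1 it was -0.35, with unadjusted p-values above 0.05. Of the 10 genes 0 were called, while edgeR called 1 of 17040 genes, or 0.00587%, DESeq2 called 0.00588% of those it tested, and limma voom called 0%. At an unadjusted p under 0.05 stood 1 of 10 members, against 2.51% of all genes, with 3 differences above 0, 7 below, and a median of -0.17 against 0.01 over all genes tested. The groups did not overlap for 1 member, Nfkb1, against 6.33% of all genes.

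The Nfkb1 levels moved with the kind of monocyte marker in the libraries. The summed CPM of 25 non-classical markers, all with a median above 1 CPM and none at 0, was 7024 to 9111 in WT PBS and 10336 to 12869 in WT IVIg, with Itgal the most abundant. Over the 17 libraries the log2 level of Nfkb1 rose with that sum (Pearson r = 0.745, permutation p = 0.00073, adjusted p = 0.0292 over 40 relations, Spearman rho = 0.684, permutation p = 0.00309, adjusted p = 0.0412). Without the pair of libraries farthest from the median sum r was 0.586, and with group means removed it was 0.555. With the 14 classical markers, led by Fn1, whose sum was 14258 to 22533 CPM in WT PBS and 9712 to 15072 CPM in WT IVIg, Nfkb1 had r = -0.68 (permutation p = 0.00369, adjusted p = 0.0738) and rho = -0.735 (permutation p = 0.00113, adjusted p = 0.0412), with r = -0.729 without the farthest pair. Of the 40 relations, of each gene with 4 marker sums, the rank correlation of Tnfaip3 with the classical sum also had an adjusted p of 0.0412 (rho = -0.699), where r was -0.482 with an adjusted p of 0.484. Whether the mix of monocytes had a part in the Nfkb1 values was not tested.

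In Dectin-1 knockout mice all 10 genes had a fitted difference above 0 with IVIg, from 0.03 to 0.77, of which none passed the adjusted test. Those of Nfkb1, Tnfaip3 and Tnf, all at or under 0.04, turned below 0 in 3, 5 and 5 of the alternative settings. Il1rn had the largest, 0.77 ± 0.26 (SE) with a 95% interval of 0.21 to 1.32 (edgeR, adjusted p = 1), and was higher in 3 of 3 IVIg mice than in any PBS mouse. Nfkb2 was too, so that for 2 of 10 members the groups did not overlap, against 8.8% of all genes. Of the 10 genes 0 were called, and edgeR called 0 of 17040 genes, or 0%, DESeq2 called 0.0118% of those it tested, and limma voom called 0%. At an unadjusted p under 0.05 stood 1 of 10 against 3.27% of all genes, and the median difference was 0.24 against 0.02. Leaving out 1 library at a time put the Il1rn difference at 0.60 to 0.90, lowest without Dectin-1 knockout IVIg replicate 1, and its unadjusted p was above 0.05 in 1 of those 18 fits, without Dectin-1 knockout PBS replicate 1.

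Markers of neutrophils were high in some of the same libraries. The summed CPM of 23 neutrophil markers was 1489, 2426 and 825 in the Dectin-1 knockout IVIg libraries and 812 to 974 in those with PBS, and 14 of the 23 had a median above 1 CPM. None was at 0 in all libraries, and Cd177, the most abundant, is also on the classical monocyte list. Ly6g, which defines the lineage, had a median of 0.0303 CPM and reached 5.3 CPM. Ltf had a median of 2.29 CPM and reached 216 CPM, and S100a9 had a median of 15.2 CPM and reached 411 CPM. Csf3r varied less, from 115 to 244 CPM. A low median thus does not show that such a marker was low in each single library. The library with the highest sum, replicate 2, had the lowest Il1rn of the 3, and without it the Il1rn difference was 0.90. Replicate 1, with the sum of 1489, had the highest Il1rn of the 3, at 34.7 CPM, and without it the difference was 0.60. Over 17 libraries Il1rn and that sum had r = 0.0714 (permutation p = 0.789, adjusted p = 0.96) and rho = -0.0956 (permutation p = 0.715, adjusted p = 0.841), and without the farthest pair r was -0.335. Whether neutrophils had a part in the Il1rn values was not tested.

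In FcgRIIb knockout mice the differences with IVIg lay from -0.53 to 0.54, those of Bcl3 and Relb. Of the 10 genes 0 were called and 0 had an unadjusted p under 0.05, against 3.19% of all genes, while edgeR called 0 of 17040 genes, or 0%, DESeq2 called 0.0765% of those it tested, and limma voom called 0%. The groups did not overlap for 1 member, Relb, against 7.04% of all genes. Its lowest value is the 0 of the shallow library. The members' median was 0.13 against 0.01 over all genes, with 6 higher and 4 lower. Without the shallow library the Nfkb2 difference went from 0.22 to -0.01 and that of Il1b from -0.23 to 0.05, and the Il1rn difference from 0.47 to 0.56.

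Averaged over the 3 genotypes, IVIg gave Il1rn a difference of 0.34 ± 0.16 (SE) with a 95% interval of 0.02 to 0.67 (edgeR, adjusted p = 1). The genotypes did not share a direction, with -0.20 in WT, 0.77 in the Dectin-1 knockout and 0.47 in the FcgRIIb knockout. Il1rn was the 1 member of 10 with an unadjusted p under 0.05, against 2.31% of all genes. Its p stayed under 0.05 in 10 of 18 fits with 1 library left out, where the averaged difference lay between 0.26 and 0.40. In DESeq2 the difference was 0.25, with an unadjusted p above 0.05. Among the members 0 were called, and edgeR called 0 of 17040 genes, or 0%, DESeq2 called 0.00588% of those it tested, and limma voom called 0%. The other 9 differences lay between -0.48 for Bcl3 and 0.23 for Relb.

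**Figure D2:**
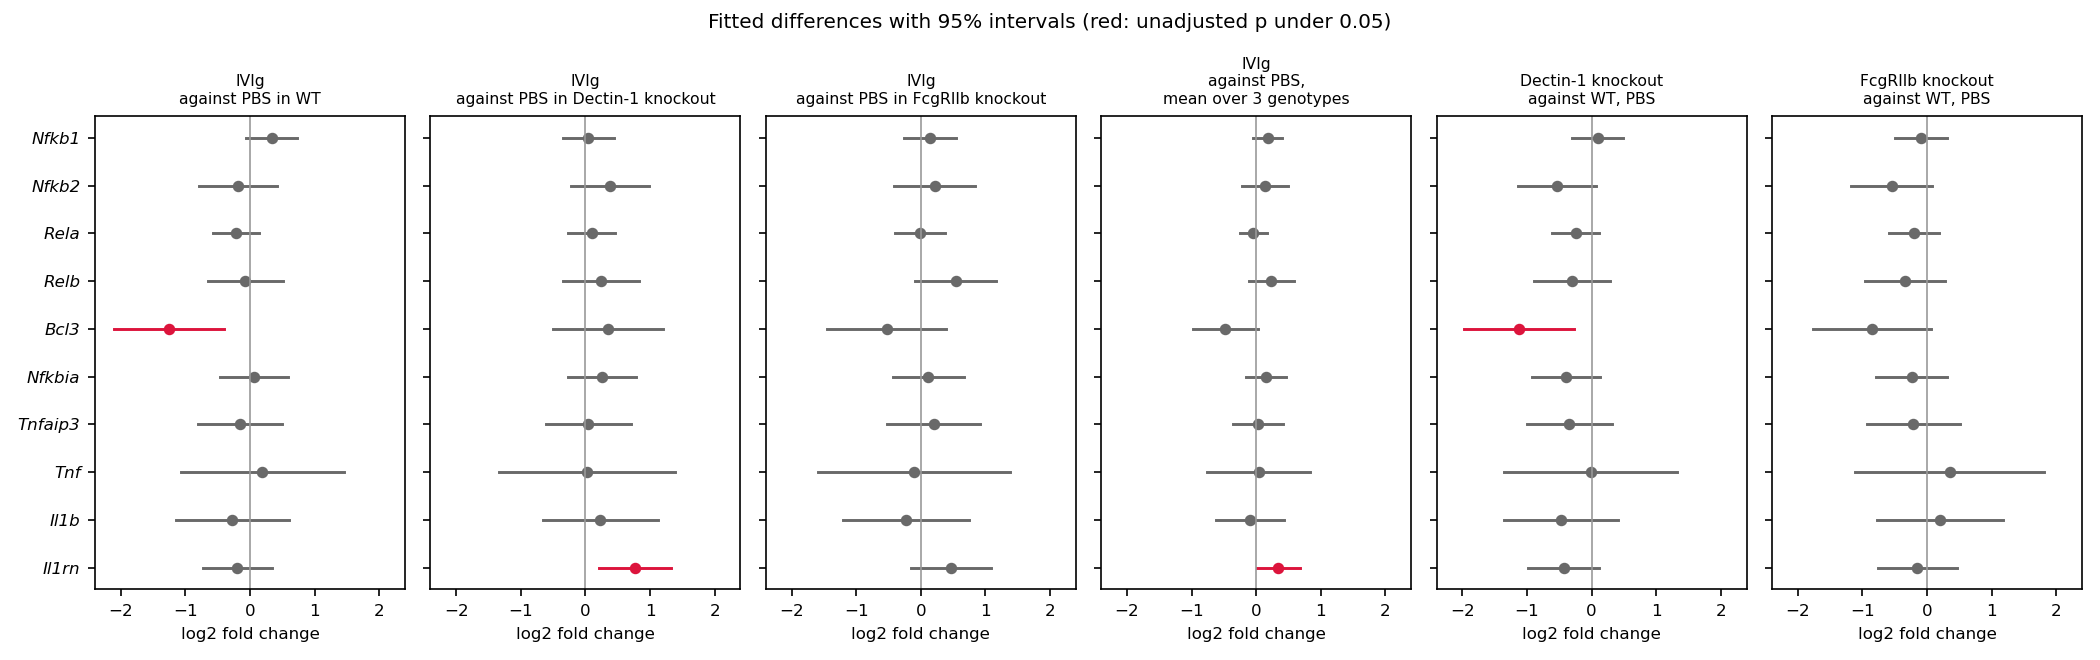
Fitted log2 fold change of each gene (horizontal axis) with its 95% interval in 6 comparisons, red where the unadjusted p was under 0.05. Bcl3 lies below 0 in WT with IVIg (-1.26) and in the Dectin-1 knockout against WT (-1.13), and Il1rn above 0 with IVIg in the Dectin-1 knockout (0.77).

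Without IVIg, the comparison of each knockout with WT asks whether these genes differed between genotypes at rest. In the Dectin-1 knockout 9 of 10 fitted differences were below 0 and Bcl3 had the largest, -1.13 ± 0.41 (SE) with a 95% interval of -1.98 to -0.27 (edgeR, adjusted p = 0.909). Without WT PBS replicate 3, which the comparison of IVIg in WT also uses, it was -0.26, with an unadjusted p above 0.05. The other 9 lay between -0.54 for Nfkb2 and 0.09 for Nfkb1. Among the members 0 were called, while edgeR called 7 of 17040 genes, or 0.0411%, DESeq2 called 0.0824% of those it tested, and limma voom called 0.0704%. At an unadjusted p under 0.05 stood 1 of 10 by edgeR, against 4.03% of all genes. By limma voom it was 4 of 10, for which no share of all genes was taken. By edgeR the count was 3 when only these 2 groups were fitted or WT PBS replicate 1 was left out, and 0 without WT PBS replicate 3. For these refits too no share of all genes was taken. The groups did not overlap for 1 member, Rela, against 16.3%, and the median was -0.37 against -0.02. Without the shallow library the unadjusted p of Nfkb2 in this comparison also came under 0.05, at a difference of -0.54 (edgeR, adjusted p = 0.838).

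In the FcgRIIb knockout without IVIg the differences from WT lay from -0.86 to 0.35, those of Bcl3 and Tnf, with 8 below 0 and 2 above. Among the members 0 were called, while edgeR called 0 of 17040 genes, or 0%, DESeq2 called 1.22% of those it tested, and limma voom called 0%. By edgeR 0 members had an unadjusted p under 0.05, where 9.64% of all genes did. By DESeq2 1 member had, for which no share of all genes was taken. No member separated the groups, against 11.6% of all genes, and the median was -0.20 against -0.05. Without the shallow library the Il1b difference went from 0.20 to -0.10. Without WT PBS replicate 3 it was 1.10 (edgeR, adjusted p = 0.897), and the Bcl3 difference was 0.01 in place of -0.86. Both values of this comparison thus depended on 1 WT mouse of 3.

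Among IVIg-treated mice the comparison of each knockout with WT gave differences that were not called. In the Dectin-1 knockout differences lay from -0.20 to 0.53 and in the FcgRIIb knockout from -0.29 to 0.51, with Nfkb1 the lowest and Il1rn the highest in both, and the comparisons share the WT IVIg libraries. Without WT IVIg replicate 1, which held the highest Tnf level, Tnf was the highest, at 1.28 in the Dectin-1 knockout (edgeR, adjusted p = 0.713) and 1.51 in the FcgRIIb knockout (edgeR, adjusted p = 1), in place of -0.17 and 0.06. Of the members 0 were called and 0 had an unadjusted p under 0.05 by edgeR in either, against 3.46% and 5.45% of all genes. By limma voom 3 members had one in the FcgRIIb knockout, and by edgeR without WT IVIg replicate 1 there was 1 in each comparison. No share of all genes was taken for these fits. For the Dectin-1 knockout edgeR called 9 of 17040 genes, or 0.0528%, DESeq2 called 0.135% of those it tested, and limma voom called 0.0646%. For the FcgRIIb knockout edgeR called 2 of 17040 genes, or 0.0117%, DESeq2 called 0.0177% of those it tested, and limma voom called 0.00587%. No member separated the groups, against 6.22% of all genes in the Dectin-1 knockout and 10.3% in the FcgRIIb knockout. Without the same library the Tnf difference with IVIg in WT was -1.27 (edgeR, adjusted p = 0.472) in place of 0.19.

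Whether the response to IVIg differed between a knockout and WT was tested by the interaction. For Dectin-1 it was 1.61 ± 0.58 (SE) for Bcl3 with a 95% interval of 0.41 to 2.82 (edgeR, adjusted p = 0.999) and 0.96 ± 0.37 (SE) for Il1rn with an interval of 0.20 to 1.73 (edgeR, adjusted p = 0.999). That of Bcl3 was 0.74 without WT PBS replicate 3, and that of Il1rn 0.85 without that library and 0.73 without the most similar WT pair, and of these 3 values only the 0.85 had an unadjusted p under 0.05. Of the members 0 were called, and edgeR called 0 of 17040 genes, or 0%, DESeq2 called 0.00588% of those it tested, and limma voom called 0%. The 2 genes with an unadjusted p under 0.05 compare with 3.74% of all genes. For FcgRIIb the interactions lay from -0.29 to 0.73. Of the 10 members 0 were called, while edgeR called 0 of 17040 genes, or 0%, DESeq2 called 0.00588% of those it tested, and limma voom called 0%. By edgeR 0 members had an unadjusted p under 0.05, against 2.86% of all genes. By limma voom 1 member had, for which no share of all genes was taken.

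**Figure D3:**
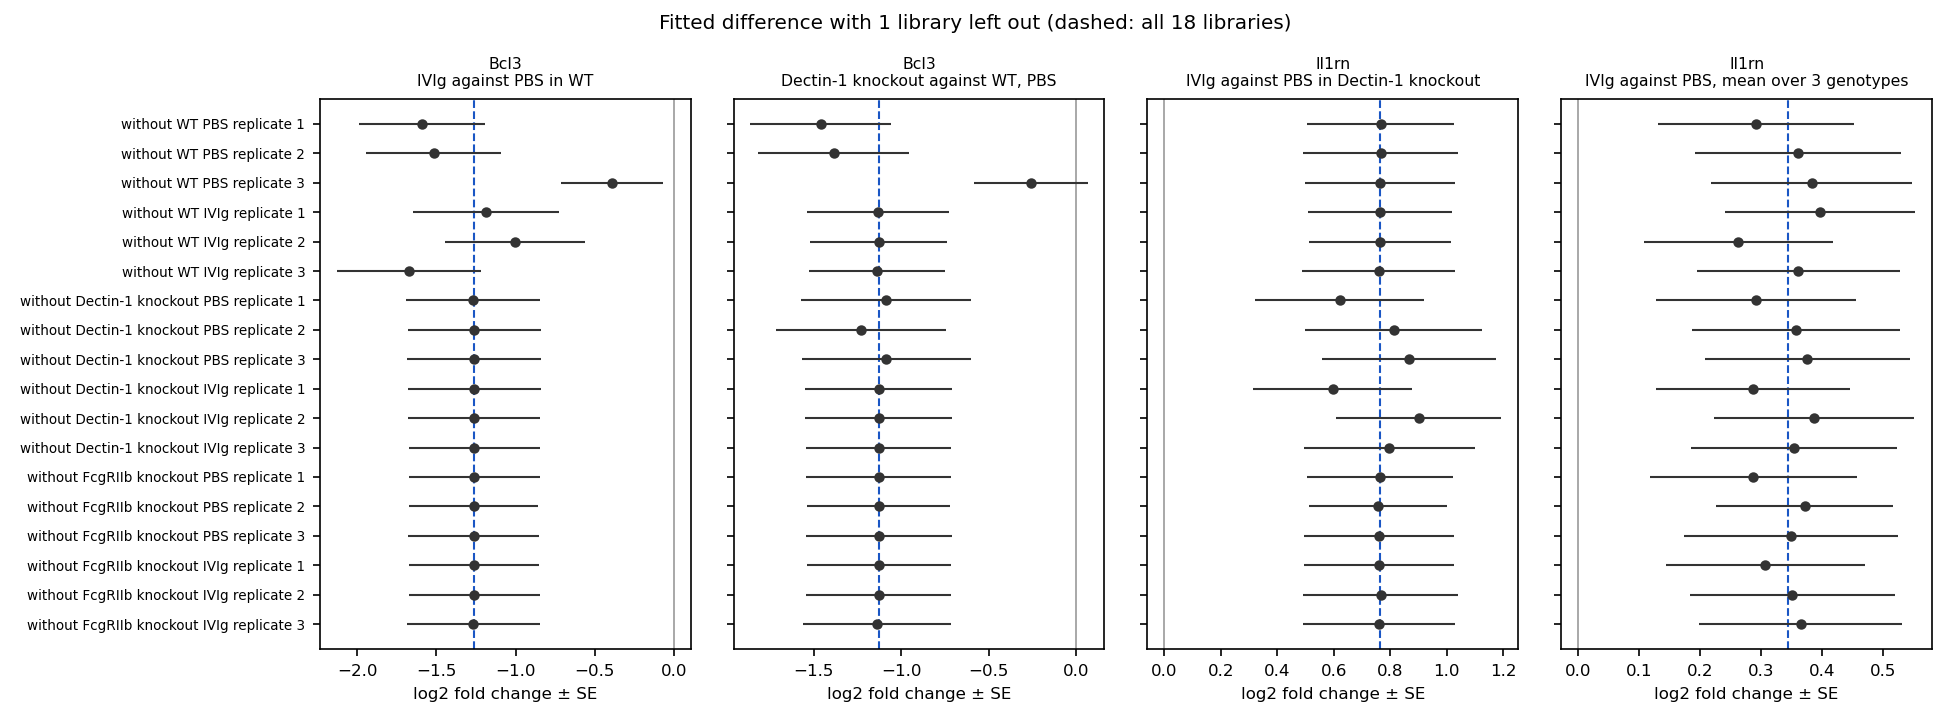
Log2 fold change ± SE (horizontal axis) of Bcl3 and Il1rn when each of the 18 libraries in turn was left out (rows), with a dashed line at the value from all 18. Both Bcl3 differences shrink to -0.39 and -0.26 without WT PBS replicate 3, while Il1rn in the Dectin-1 knockout stays at 0.60 to 0.90.

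The rest of the pathway was read from 5 lists with 119 genes, of which 118 were in the table and 104 were tested. They hold other NF-kB and IkB proteins, the IKK complex with its adapters, other feedback genes, receptors and processing enzymes of TNF and interleukin-1, and inflammatory targets. Of the 104 tested genes 0 rose and 0 fell by edgeR's adjusted test in any of the 10 comparisons. At an unadjusted p under 0.05 stood 2.88% of them with IVIg in WT against 2.51% of all genes, 1.92% against 3.27% in the Dectin-1 knockout and 0.962% against 3.19% in the FcgRIIb knockout. Without IVIg the shares were 3.85% against 4.03% for the Dectin-1 knockout and 8.65% against 9.64% for the FcgRIIb knockout. The shares lay near those of all genes or below them.

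By list, the medians stayed small. With IVIg in WT the median log2 difference was -0.02 for the 10 other NF-kB and IkB genes, -0.02 for the 31 genes of the IKK complex and its adapters, -0.11 for the 20 other feedback genes, -0.05 for the 16 receptor and processing genes and -0.12 for the 27 inflammatory targets, against 0.01 for all genes. With IVIg in the Dectin-1 knockout the inflammatory targets had a median of 0.15 and in the FcgRIIb knockout of 0.22, against 0.02 and 0.01 for all genes. In the Dectin-1 knockout against WT with PBS they had -0.23 and the feedback genes -0.21, against -0.02. The comparisons of IVIg in WT and of the Dectin-1 knockout with PBS share the WT PBS libraries, replicate 3 included.

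Among the receptors the monocytes held much transcript for sensing TNF. Tnfrsf1b, a TNF receptor, had a median of 436 CPM per kilobase and Tnfrsf1a, the other, 137, against 2.23 for Tnf itself. Of the interleukin-1 machinery Gsdmd, which forms the release pore, stood at 55.0 CPM per kilobase, Casp1 at 36.0, Pycard at 23.3 and Nlrp3, the sensor of the inflammasome, at 14.2. Il1a stood at 0.276 CPM per kilobase and the decoy receptor Il1r2 at 0.897, and the signalling receptor Il1r1 had 56 counts over 6 libraries and was not tested. Of the 16 tested genes in this list 0 were called in each comparison.

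The 10 genes of other NF-kB and IkB proteins were all tested, and their medians all lay below that of Nfkbia. Rel, the remaining subunit, had a median of 12.8 CPM per kilobase, below the 16.5 of Relb. The inhibitor gene Nfkbie stood at 26.9 CPM per kilobase against 107 for Nfkbia. Nfkbiz and Nfkbid, which encode nuclear proteins of the IkB family, stood at 4.20 and 2.83. The kinases of the IKK complex, Chuk and Ikbkb, stood at 12.6 and 12.4 and its scaffold Ikbkg at 10.1. Myd88, the adapter of Toll-like and interleukin-1 receptors, stood at 90.1, and Zfp36l2, which binds AU-rich messages, at 147.

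Inflammatory targets ranged from no counts to above the highest subunit median, the 41.3 CPM per kilobase of Nfkb1. Of the 40 listed, 20 had a median above 1 CPM per kilobase and 11 a median above 10. Of the 40, 27 were tested, and Cxcl2, Cxcl3, Csf2 and Csf3 had no count in any of the 18 libraries. Il6 reached 0.259 CPM at most, Cxcl1 0.0937, Nos2 0.0341 and Il12b 0.385. Ptgs2, the inducible cyclooxygenase, had 97 counts over 8 libraries. Bcl2a1b, a survival gene, stood at 65.0 CPM per kilobase, Plaur, the urokinase receptor, at 44.9 and the adhesion gene Icam1 at 29.3.

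**Figure D4:**
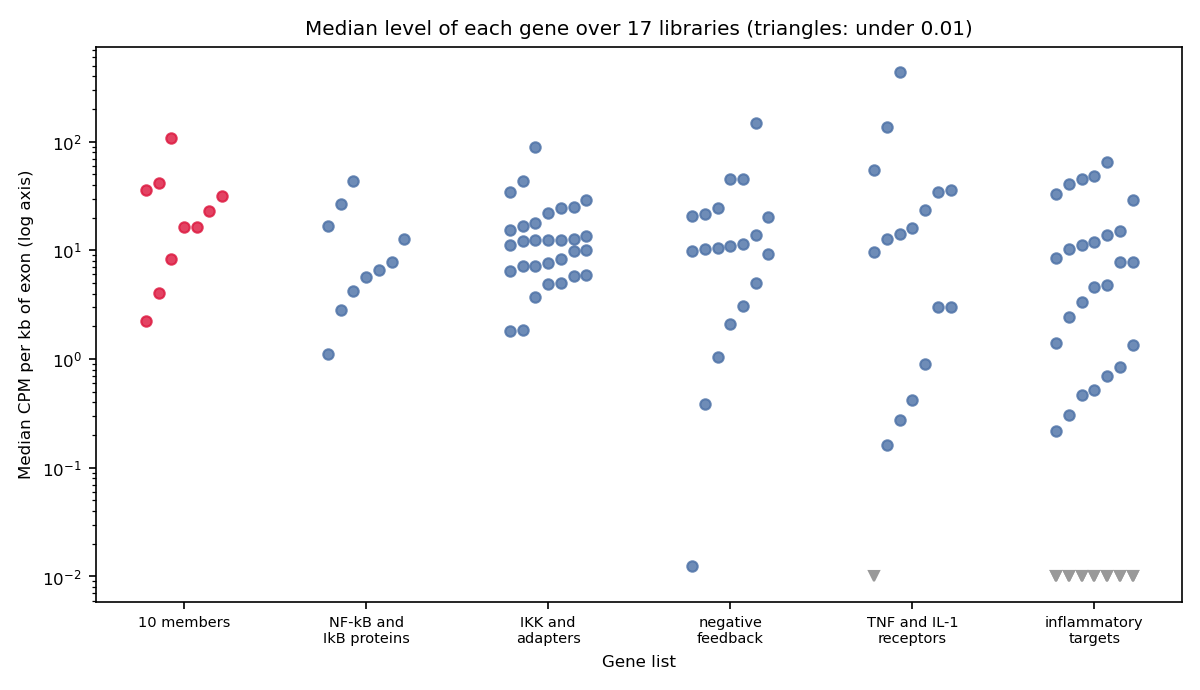
Median CPM per kilobase of exon over the 17 libraries of ordinary depth (log axis), 1 point per gene, for the 10 genes (red) and the 5 pathway lists (blue), with triangles for genes under 0.01. The lists of signalling proteins lie mostly between 1 and 100 CPM per kilobase, and the inflammatory targets reach from above 10 down to no counts.

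Some pathway genes had the smallest p of a comparison and are given as values, since none passed the adjusted test. Ier3, an early response gene, stood at 1.64, 1.83 and 10.5 CPM in WT PBS and 1.59, 1.13 and 1.51 CPM in WT IVIg. Its difference was -1.73 ± 0.58 (SE) (edgeR, adjusted p = 1), and -0.31 without WT PBS replicate 3. Against WT without IVIg the Dectin-1 knockout had -1.84 ± 0.63 (SE) for Ier3, or -0.42 without that library, and -1.42 ± 0.54 (SE) for Osm, the cytokine oncostatin M, or -1.03 without it. Ier3 and Bcl3 were thus both high in the same mouse.

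Dusp2, a phosphatase that switches off MAP kinases, differed with IVIg in WT by 0.72 ± 0.29 (SE) (edgeR, adjusted p = 1) and over the 3 genotypes by 0.41 ± 0.18 (SE), falling to 0.39 in WT without WT IVIg replicate 2. Traf1, an adapter, had 0.36 ± 0.19 (SE) over the 3 genotypes. Dusp1, a related phosphatase, was 59.3 CPM in WT IVIg replicate 2 and its difference of -1.0 ± 0.44 (SE) between the Dectin-1 knockout and WT with IVIg was -0.12 without that mouse. The Dusp2 difference in WT and the Dusp1 difference thus both shrank without WT IVIg replicate 2.

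Marcksl1, an actin regulator on the target list, was 49.9, 65.04 and 50.1 CPM in Dectin-1 knockout PBS and 117, 53.02 and 90.6 CPM in Dectin-1 knockout IVIg. The difference with IVIg there was 0.65 ± 0.25 (SE) and the interaction 1.17 ± 0.36 (SE) (edgeR, adjusted p = 0.999). With IVIg it was above WT by 0.73 ± 0.25 (SE) in the Dectin-1 knockout and 0.56 ± 0.25 (SE) in the FcgRIIb knockout. Without Dectin-1 knockout IVIg replicate 1, the highest of that group, the first difference was 0.39 and that from WT 0.47. Otulin, which trims linear ubiquitin chains, had -0.57 ± 0.24 (SE) with IVIg in the Dectin-1 knockout and an interaction of -0.94 ± 0.34 (SE). Marcksl1 was higher and Otulin lower in the same IVIg group, both short of the adjusted threshold.

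In the FcgRIIb knockout without IVIg, Rel stood at 86.3, 91.8 and 44.01 CPM against 102, 119.7 and 140.4 CPM in WT, a difference of -0.81 ± 0.29 (SE) (edgeR, adjusted p = 0.503). It was the subunit with the smallest p in that comparison, at -0.47 without FcgRIIb knockout PBS replicate 3 and -1.19 without FcgRIIb knockout PBS replicate 1. Ikbke, a kinase related to IKK, had -1.62 ± 0.61 (SE), and -0.53 in DESeq2. It stood at 4.88, 40.9 and 8.42 CPM against 24.4, 10.2 and 37.5 CPM in WT. The 40.9 CPM, that of the shallow library, lay above all 3 WT values. Sdc4, a syndecan, had 1.18 ± 0.56 (SE) with IVIg in the FcgRIIb knockout and an interaction of 1.73 ± 0.73 (SE). Without WT PBS replicate 2 the interaction was 1.03. Its FcgRIIb knockout PBS values were 3.34, 0 and 2.05 CPM, and the 0 is that of the shallow library. Cd83 had 0.45 ± 0.24 (SE) with IVIg in that genotype, and its lowest PBS value, 16.9 CPM, is from the same library. With IVIg Clec4e was above WT by 0.63 ± 0.26 (SE) in the FcgRIIb knockout. For Ptgs2, which had the smallest p of the FcgRIIb interaction, no fold is given because all 3 FcgRIIb knockout PBS libraries were at 0. The summed B and plasma cell markers were 695 to 1207 CPM in WT and the Dectin-1 knockout, with 16 of 20 genes above a median of 1 CPM, none at 0 and Xbp1 the most abundant. They reached 1099 to 2653 CPM in the FcgRIIb knockout, and their part in these values was not tested.

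WT PBS replicate 3 recurred across the pathway. Among the 17 libraries of ordinary depth it was the highest for 4 of the 10 genes, Nfkb2, Rela, Bcl3 and Il1b, and for 30 of the 104 pathway genes, or 28.8%, while it was highest for 9.64% of all tested genes. WT IVIg replicate 1, the library most like it, was highest for 2 of the 10 and for 8.65% of the pathway genes against 11.4% of all. Summed immediate early genes, which rise when cells are handled, were 3065 CPM in WT PBS replicate 3 and 3124 and 3273 in the other WT PBS mice, and its neutrophil sum of 768 was the lowest of the 3. In the immediate early sum the medians were 590 CPM for Nr4a1 and 399 for Klf2, against 36.1 for Fos and 1.19 for Egr1. Nr4a1 and Klf2 are also on the non-classical monocyte list, so that sum does not measure handling alone. The library was chosen for description after its values were seen, and what sets it apart was not tested.

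Across the 17 libraries the members varied together only loosely. Of 45 pairs 0 passed the adjusted test of Pearson's r and 0 that of Spearman's rho. The highest was Relb with Il1rn (r = 0.693, permutation p = 0.00255, adjusted p = 0.0589, rho = 0.674, permutation p = 0.00365, adjusted p = 0.0648), at r = 0.685 without the 2 libraries farthest from the median and 0.577 with group means removed. Nfkb2 and Rela had r = 0.678 (permutation p = 0.00262, adjusted p = 0.0589) and rho = 0.674 (permutation p = 0.00432, adjusted p = 0.0648), at r = 0.624 without the farthest pair. Nfkbia and Il1rn had r = 0.584 (permutation p = 0.0144, adjusted p = 0.115) and rho = 0.703 (permutation p = 0.00233, adjusted p = 0.0648), and r = 0.851 with group means removed. Nfkb2 and Bcl3 had r = 0.605 (permutation p = 0.0153, adjusted p = 0.115) with rho = 0.355 (permutation p = 0.165, adjusted p = 0.57). Their r was 0.201 without the farthest pair and 0.633 with group means removed, so the value over 17 libraries leaned on that pair.

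**Figure D5:**
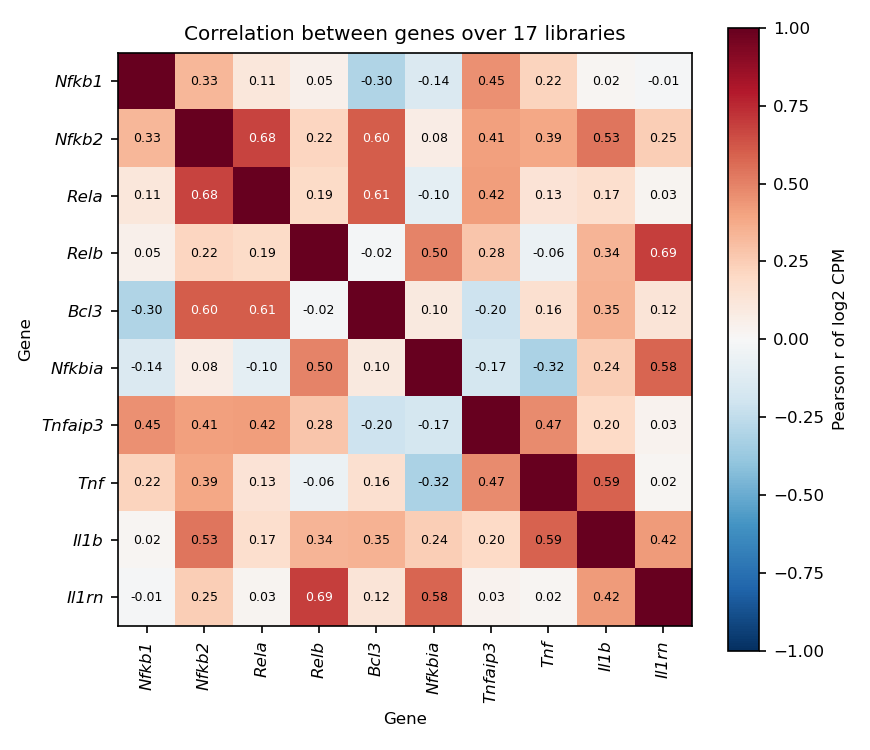
Pearson correlation of log2 CPM between each pair of the 10 genes over the 17 libraries of ordinary depth, coloured from -1 (blue) to 1 (red). The deepest red off the diagonal is Relb with Il1rn (0.69) and the lowest value is Nfkbia with Tnf (-0.32).

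The genes most like each member were sought among 9091 genes with a mean of at least 5 CPM, by Pearson correlation of log2 CPM over the same 17 libraries, and are given as a description. Those most like Nfkb2 were Fhod1 (r = 0.898), Tnip1 (0.886), a partner of A20, and Psip1 (0.886). Rela was most like Smap2 (0.863), Nfkb1 most like Myo1g (0.848), Tnfaip3 most like Bcl11a (0.832), Tnf most like Tecpr1 (0.792) and Nfkbia most like Dok1 (0.769). Bcl3 was most like Il4ra (0.867), the interleukin-4 receptor chain, and Nfil3 (0.831), which were at 0.472 and 0.546 without WT PBS replicate 3 and WT IVIg replicate 2. In WT PBS replicate 3 Il4ra stood at 229 CPM and Nfil3 at 108 CPM, each the highest of its gene in any library. Il1b was most like Apobec3 (0.818), at 0.539 without the 2 libraries farthest from its median.

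Il1rn and Relb shared a neighbour. Il1rn was most like Cxcl9 (r = 0.854, or 0.773 without the farthest pair), an interferon-gamma induced chemokine, then Serpina3g (0.746) and Marcksl1 (0.743), and Relb was most like Serpina3g (0.813), H2-Eb2 (0.787) and St8sia1 (0.785). Cxcl9 stood at 4.85, 7.67 and 7.18 CPM in Dectin-1 knockout PBS and 26.9, 10.3 and 11.7 CPM in Dectin-1 knockout IVIg. As with Il1rn, the IVIg libraries all lay above the PBS libraries in that genotype, where groups did not overlap for 8.8% of all genes. Cxcl9 in the FcgRIIb knockout was 10.4, 46.6 and 5.87 CPM with PBS and 21.6, 13.9 and 12.5 CPM with IVIg. There too the IVIg libraries lay above those with PBS, except the shallow one at 46.6 CPM. Cxcl9 was picked as the gene most like Il1rn in these libraries, so a shared order is no separate result. In WT the Cxcl9 values were 6.56, 13.6 and 6.84 CPM with PBS and 5.91, 17.4 and 5.39 CPM with IVIg, which overlapped. These libraries share depth, sorting and mice across genes, so the likeness carries no test.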

How the data were processed

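The deposited table holds raw read-pair counts per gene, made by the authors with featureCounts 2.0.2 on the Ensembl release 104 annotation of GRCm39, primary alignments only, with pairs counted for every gene they overlap and no strand setting, per the file headers. STAR and edgeR 3.36 are named in the submitters' processing notes. Another 18 columns of the table matched no sample and were not used. Libraries were prepared from messenger RNA with a stranded kit, per the labels' protocols. Total counts per library set the precision of each value, and floors of 3 counts cover counting error only.

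Counts were fitted with edgeR 4.0.16 (quasi-likelihood, filterByExpr, TMM, 1 mean per group over all 18 libraries, 12 residual degrees of freedom) in R 4.3.3, and beside it with DESeq2 1.42.0 and limma 3.58.1 (voom). P-values were adjusted over all genes tested. CPM used TMM library sizes. For log2 CPM a prior count of 2 was added. Correlations used 100000 permutations over the 17 libraries of ordinary depth. The fit was tested on simulated data. The members, the pathway and marker lists and the alternatives were chosen with earlier results of these data known. All members were named with every library's value, with a fold change where the unadjusted p was under 0.05, and of the pathway genes those with the smallest p in each comparison. Members named for a change when 1 library was left out, and single libraries, were picked after their values were seen. The summed markers of T and NK cells were 14.8 to 87.7 CPM. Of the 25 immediate early genes 0 were called in any comparison. A gene that the rule for similar patterns would name is not reported here.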

Additional observations from a re-analysis of the deposited data

How the results depend on the processing

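Other fits, size factors, low-count filters, gene sets and groups of libraries, and each library left out in turn, gave 279 further counts of called members, and all were 0. The 6 member differences with an unadjusted p under 0.05 and the 20 of pathway genes chosen by smallest p gave 723 further log2 fold changes, which all kept their direction and stayed uncalled. Of all 100 member differences 50 changed sign in at least 1 setting. No paired analysis was possible because the labels give no replicate numbers, those used here follow accession order, and no groups that were compared share 2 of the codes in the sample titles. The Bcl3 difference with IVIg in WT lay between -1.68 and -0.39 with 1 library left out, and its unadjusted p was under 0.05 in 17 of 18 such fits. The smallest adjusted p of any member under any alternative was 0.183 (edgeR), for Nfkb2 in the FcgRIIb knockout against WT with PBS without FcgRIIb knockout PBS replicate 1, where the difference was -0.81. Without FcgRIIb knockout PBS replicate 1 that group held only replicate 3 and the shallow library, in which Nfkb2 had 27 counts. Counts over all genes moved more. In the FcgRIIb knockout against WT with PBS edgeR called 0 genes, DESeq2 175, and edgeR without FcgRIIb knockout PBS replicate 1 40. For IVIg in the Dectin-1 knockout edgeR called 13 without Dectin-1 knockout IVIg replicate 3, in place of 0, and for the Dectin-1 knockout against WT with IVIg 28 in place of 9. The cause was not tested. The shallow library could not show Tnf or Relb below 4.24 CPM.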
